A study of Mus musculus with 12 samples.

Results

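Methylation was examined at 4592 stretches of the mouse genome that lie inside protein-coding genes and are neither fully methylated nor unmethylated in the young heart. They were chosen by their measured level. The autosomal CpG sites with a value in all 12 samples were grouped into windows (tiles) of 500 bp, and tiles with at least 3 sites were kept, which gave 38449 tiles. Of these, 15572 had all their sites inside a protein-coding gene and more than 1 kb from the end of any such gene. The 4592 tiles among them (29.5%) whose mean over all 12 samples was 20 to 80% are described here, against 6796 gene-body tiles over 80% and 4184 under 20%. The mean level is therefore the selection itself and is given only as a description. The tiles closest to the limits on the inside were in Comp (20.03%), Cdh4 (20.04%), Piwil4 (79.99%) and Fam161b (79.98%), and those closest on the outside were in Trappc9 (19.99%), Cacna1d (19.98%), Mical3 (80.01%) and Mllt6 (80.02%).

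The samples were left ventricles of 12 wild-type FVB/N mice, an inbred laboratory strain, taken at 3 weeks of age and measured by reduced representation bisulfite sequencing (RRBS). In RRBS the enzyme MspI enriches CpG-rich fragments, and bisulfite conversion lets the share of reads that keep a cytosine be read as percent methylation. Mothers of the HFD group (3 daughters and 3 sons sampled) had a high-fat diet from 6 weeks of age and through the study, and mothers of the RD group (4 daughters and 2 sons sampled) had a regular diet over the same time. All mothers were mated after 8 weeks of their diet to males fed regular diet, so the groups differ in the diet of the mother, which also reached the young through pregnancy and nursing. How many mothers there were is not given, so some animals may be littermates, and the p-values measure only the spread between these 12 animals. Library numbers ran from 2 to 8 in HFD and from 9 to 14 in RD, so library order and diet cannot be told apart. The values came as percentages without read counts, so their depth is unknown.

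In mammalian genomes most CpGs inside transcribed genes are methylated, while CpG islands at active starts are kept free of methylation. A level between these states can arise when the alleles or the cells of a tissue differ. At imprinted control regions the copy from one parent is methylated and the other is not, and at enhancers or internal promoters some cell types of the heart may carry methylation where others do not. The left ventricle holds cardiomyocytes, endothelial cells, fibroblasts, mural cells and immune cells. In bulk DNA a changed share of cells and a changed level within cells cannot be told apart.

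Some of these tiles sit at transcription starts that lie inside a longer form of the gene, and these are shown first because the sequence can be set beside the values. RefSeq (GRCm38.p6) promoter windows held a measured site of 61 tiles, and in 39 the window belonged to the host gene itself. The windows below were chosen after their values were seen. Rgs3, Mcf2l and Tbx1 also belong to the tiles named by rule, Ece1 and Arhgap32 are further starts of their own host gene, and the last is the hairpin of a microRNA. Each line runs 5′ to 3′ from 250 bases before the start to the first bases of the transcript, or over the hairpin, and capitals mark the CpGs that were measured.
Rgs3, chr4:62619422-62619691, plus strand: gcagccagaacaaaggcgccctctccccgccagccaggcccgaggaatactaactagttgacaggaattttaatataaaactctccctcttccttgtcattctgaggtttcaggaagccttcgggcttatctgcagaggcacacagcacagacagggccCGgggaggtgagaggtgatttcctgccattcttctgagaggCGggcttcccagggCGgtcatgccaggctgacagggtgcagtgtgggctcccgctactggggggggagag
Mcf2l, chr8:12926026-12926295, plus strand: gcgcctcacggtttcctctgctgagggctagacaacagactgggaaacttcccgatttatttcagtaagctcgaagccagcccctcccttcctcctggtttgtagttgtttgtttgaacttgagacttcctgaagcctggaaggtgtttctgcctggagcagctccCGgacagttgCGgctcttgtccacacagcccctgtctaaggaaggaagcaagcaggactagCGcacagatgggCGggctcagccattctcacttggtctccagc
Ece1, chr4:137920543-137920812, plus strand: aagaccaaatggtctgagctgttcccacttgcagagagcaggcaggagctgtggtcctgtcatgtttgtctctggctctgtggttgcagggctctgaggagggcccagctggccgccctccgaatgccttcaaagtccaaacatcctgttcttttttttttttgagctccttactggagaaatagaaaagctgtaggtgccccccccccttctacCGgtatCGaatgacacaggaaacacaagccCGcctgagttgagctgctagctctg
Arhgap32, chr9:32032053-32032322, plus strand: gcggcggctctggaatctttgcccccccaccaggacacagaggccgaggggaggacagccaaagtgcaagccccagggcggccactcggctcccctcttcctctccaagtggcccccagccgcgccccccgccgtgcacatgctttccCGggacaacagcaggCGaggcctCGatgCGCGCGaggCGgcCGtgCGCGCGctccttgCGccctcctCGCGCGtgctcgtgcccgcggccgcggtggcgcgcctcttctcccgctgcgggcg
Tbx1, chr16:18588880-18589149, minus strand: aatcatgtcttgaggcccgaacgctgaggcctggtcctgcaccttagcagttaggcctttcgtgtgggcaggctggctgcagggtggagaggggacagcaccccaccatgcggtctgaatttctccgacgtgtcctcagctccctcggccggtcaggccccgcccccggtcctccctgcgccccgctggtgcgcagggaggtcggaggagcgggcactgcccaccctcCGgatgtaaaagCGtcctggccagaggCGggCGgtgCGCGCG
Mir26a-1, chr9:119031796-119031885, plus strand: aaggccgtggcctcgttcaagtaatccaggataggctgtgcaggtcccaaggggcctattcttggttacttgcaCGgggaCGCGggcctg

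Rgs3 encodes a regulator of G protein signalling. All 3 sites of its tile lay upstream of the start, at -91, -50 and -36 bases, with means of 23.9%, 38.3% and 37.5%. Mcf2l encodes a guanine nucleotide exchange factor, and its tile straddled the start. The 4 measured sites upstream averaged 43.8%, against 59.1% at the 3 sites 167 to 190 bases downstream, and HFD was lower than RD at all 7 sites. Ece1 encodes the enzyme that makes endothelin. Its 5-site tile stood at 39.9% ± 9.86 in HFD and 51.8% ± 4.18 in RD (SD, n = 6 each), which did not pass (limma adjusted p = 0.428).

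Arhgap32, which encodes a GTPase-activating protein, showed a slope within its 31-site tile. The sites at -102, -87 and -79 bases had means of 7.34%, 3.83% and 6.28%. The level then climbed over the next CpGs, through 20.1% at -70 and 37.5% at -57, to 46.4% at -31. The 16 sites downstream of the start averaged 47.5%, so the tile mean of 37.9% stands for an unmethylated edge and a plateau. Over the whole tile the means were 36.5% ± 13.3 in HFD and 39.2% ± 15.2 in RD (SD, n = 6 each; limma adjusted p = 0.964), and its parts had opposite signs. The 15 upstream sites averaged 29.2% ± 5.37 in HFD and 25.9% ± 12.0 in RD, and 12 of them had a higher mean in HFD. All 16 downstream sites had a lower mean in HFD, with differences from -11.1 to -5.44 points. Samples there ran from 19.6 to 75.4% in HFD and from 33.8 to 80.2% in RD, so the diets overlapped widely. These stretches of the Arhgap32 tile were set apart after their values were seen, with no test.

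Tbx1, a T-box transcription factor of the developing outflow tract, had 19 sites on both sides of an internal start and a mean of 39.8%. Its samples ran from 36.1 to 42.5% in HFD and from 36.6 to 46.3% in RD (limma adjusted p = 0.909), and 3 RD samples lay above the highest HFD sample. The 7 sites inside the printed window averaged 39.9% in HFD and 46.2% in RD, and all 7 were lower in HFD, with differences from -10.03 to -1.84 points. The 4 sites 25 to 36 bases downstream averaged 35.7% in HFD and 42.0% in RD, and all 4 were lower in HFD. The 8 sites 150 to 313 bases downstream averaged 39.2% in HFD and 35.7% in RD, and 6 of them were higher in HFD. These stretches of the Tbx1 tile were compared after their values were seen, with no test. The Mir26a-1 hairpin lies inside the phosphatase gene Ctdspl. Of the 8 sites of that tile, 3 fall in the hairpin, and the first of them lies at the end of the mature mmu-miR-26a-1-3p arm. The tile averaged 36.2% ± 4.23 in HFD and 42.7% ± 7.70 in RD (SD, n = 6 each), with a limma unadjusted p of 0.0431 and an adjusted p of 0.623. Over the 61 tiles with a site in a promoter window, 34 (55.7%) had a lower mean in HFD, against 53.3% of all tiles tested. A limma unadjusted p under 0.05 was found in 7 (11.5%), against 7.81% of all tiles tested, and 0 passed after adjustment.

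The 4592 tiles held 21738 sites in 3015 host genes. A site is a deposited position, and 339 of them, in 307 tiles (6.69%), lie 1 bp after another and may be the other strand of a CpG already counted. With such pairs merged, 31 tiles would have under 3 sites. Most were short, with a median of 4 sites over 68 bp, and 1962 had exactly 3 sites while 450 had 8 or more. The median tile mean was 61.9%, and the median distance to the nearest end of a coding gene was 11318 bp. A listed transcription start lay within 1000 bp of 5.21% of the 4454 tiles on chromosomes with a start table, against 2.18% of gene-body tiles over 80% and 42.1% of those under 20%. Along the gene, the median position was 55.8% of the way from start to end, between that of the tiles over 80% (65.3%) and of those under 20% (21.9%). Where the next 500 bp tile on either side was also measured (823 neighbouring tiles), 58.6% of neighbours were at 20 to 80% as well, 23.0% were over 80% and 18.5% were under 20%.

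An intermediate mean came about in different ways at the level of single CpGs. In 1970 tiles (42.9%) every site averaged 20 to 80%, and in 352 (7.67%) at least 1 site was under 20% and another over 80%. The most even tiles among those with 8 or more sites lay in Grb10, Zeb1 and Kcnq1. In Grb10, which encodes an adapter that dampens insulin signalling, the 8 sites averaged 32.6 to 35.0%. In the part of Kcnq1 that overlaps the noncoding RNA Kcnq1ot1, the 9 sites averaged 32.7 to 40.4%. The 16 sites in Impact, an imprinted gene whose product restrains the translational regulator GCN2, averaged 58.2 to 69.2% over all 12 samples. No sample had that level over the tile. The HFD samples ran from 33.9 to 45.5% and the RD samples from 74.7 to 90.3%. The RD mean (82.6%) was above the 80% limit, so Impact is intermediate through the average of both diets.

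**Figure D1:**
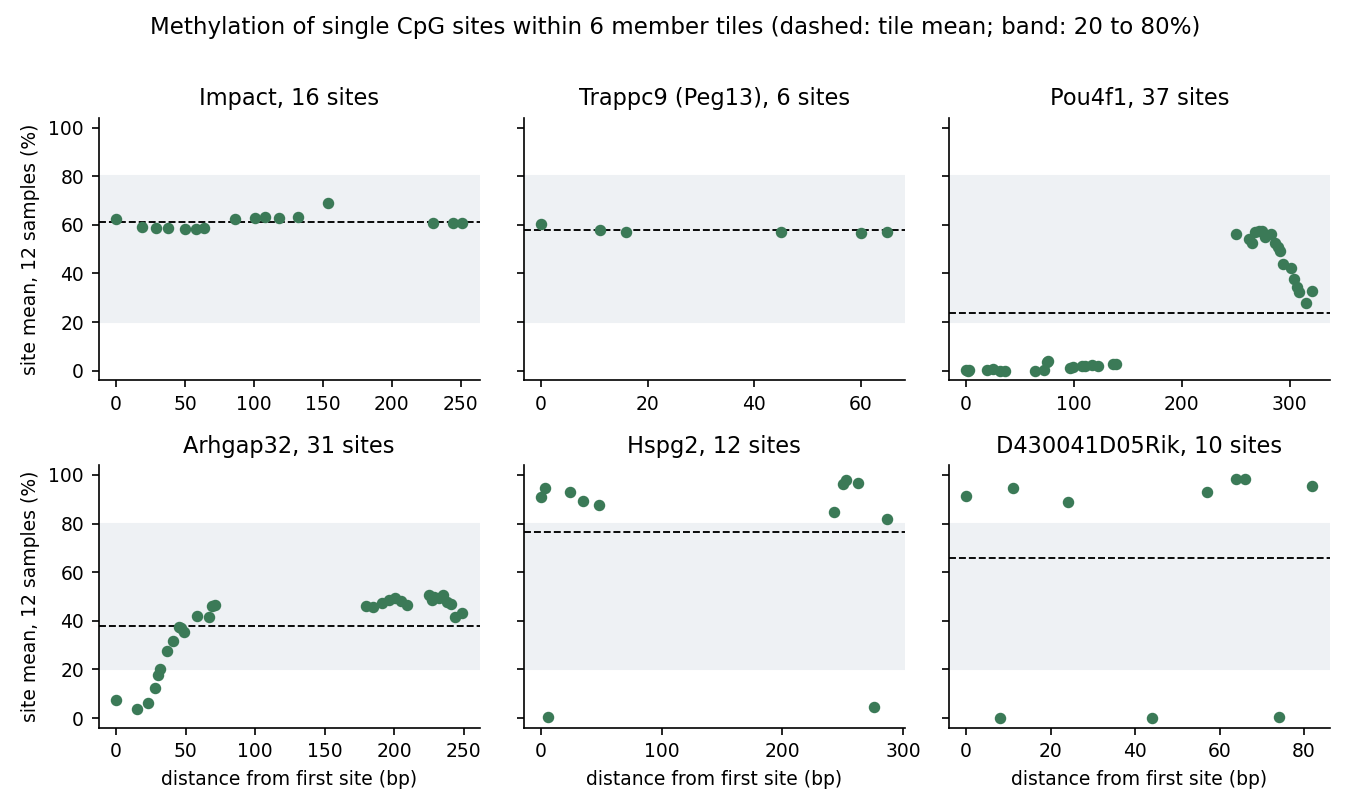
Mean methylation of each CpG over 12 samples (y axis, %) against its distance from the first site of the tile (x axis, bp) in 6 tiles, with the tile mean dashed and the 20 to 80% range shaded. Impact and Trappc9 (Peg13) are level, Pou4f1 and Arhgap32 pass from unmethylated to intermediate, and Hspg2 and D430041D05Rik hold single sites near 0% between sites mostly over 80%. The level shown for Impact lies between its HFD mean (39.9%) and its RD mean (82.6%).

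Other tiles were mixtures of distinct levels. In Pou4f1, a transcription factor of sensory neurons, 19 of 37 sites averaged at most 4.11% and the other 18 averaged 27.8 to 57.6%. Among tiles with 8 or more sites, the largest site-to-site spread belonged to D430041D05Rik, Clstn1 and Hspg2, where sites near 0% stood among highly methylated ones. In D430041D05Rik, 7 of 10 sites were over 80% and 2 were at 0% in every sample. Clstn1 encodes the synaptic adhesion protein calsyntenin. Of its 12 sites, 9 were over 80% and 1 was at 0% in every sample. With pairs 1 bp apart merged it had 10 sites, 7 of them over 80%. Hspg2 encodes perlecan, a basement membrane proteoglycan, and 10 of 12 sites of its most spread tile were over 80%.

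Sites at 0% in all 12 samples were found in 194 of the 4592 tiles (4.22%), 208 sites in all. The remaining sites of these tiles had a median tile average of 84.9%, and in 117 of the tiles they averaged over 80%, so those tiles were intermediate only through the sites at 0%. In the other 77 the remaining sites averaged 20 to 80%. Such sites made up 0.957% of sites in the intermediate tiles, 0.0276% in gene-body tiles over 80% and 3.75% in those under 20%. In Sgsm1, which encodes a regulator of small GTPases, 1 of 8 sites (7 when merged) was at 0% throughout and the other 7 averaged 87.7%. The sequence of the FVB/N strain at these positions was not examined, and its part in these values was not tested.

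The tiles with the most sites gave the most closely sampled stretches. Among them, Pou4f1 had 37 sites at 23.6% (35 with pairs 1 bp apart merged). The 32-site tiles lay in Cmss1 and Filip1l, which overlap there (55.7%, 25 sites when merged), in the zinc finger gene Zfp993 (48.0%) and in Crb2, a cell polarity gene (52.3%, 31 when merged). Merged, the Cmss1 and Filip1l tile would have fewer sites than the 31 in Arhgap32. None of these 4 passed the test for diet (limma adjusted p = 0.831 to 0.981, with unadjusted p from 0.203 to 0.814), and in each the HFD and RD ranges overlapped.

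By gene, 2068 genes had a single intermediate tile and 89 had at least 5. The most, 16, 15 and 15, fell in Gm37013, Gm38666 and Gm38667, models that span the clustered protocadherins and largely share their tiles. Gse1, a subunit of a histone demethylase complex, had 15 of its 42 gene-body tiles at intermediate level, 14 over 80% and 13 under 20%. In Rbfox3, a neuronal splicing factor, 13 of 21 tiles were intermediate. In these 5 genes the tiles pointed both ways for diet. In Gse1 8 of 15 were lower in HFD, with differences from -8.46 to 7.48 points. In Rbfox3 4 of 13 were lower, from -3.75 to 5.85 points. The smallest limma adjusted p-value was 0.570 in Gse1 and 0.571 in Rbfox3.

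The spread between animals was described next. The SD between samples of one diet had a median of 4.92 points in the intermediate tiles, against 2.55 in gene-body tiles over 80% and 1.82 in those under 20%. Intermediate tiles elsewhere were close to it, with 4.81 within 1 kb of gene ends and 4.78 outside coding genes. A percentage has less room to vary near either end of its scale, and the classes were set by level. The contrast with the tiles over 80% and under 20% is therefore only a description. By level the median was 4.92 points at 20 to 30%, 5.76 at 40 to 50% and 4.33 at 70 to 80%. At the steady end, among tiles with 8 or more sites, stood Sgsm1, Tll2, a protease related to BMP1, and a tile in Hspg2. In Tll2 the samples ran from 44.7 to 46.9% in HFD and from 46.8 to 50.1% in RD.

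At the variable end, 13 tiles had a within-diet SD over 15 points, and 4 of them had 8 or more sites. This limit was set after the values were seen. The widest was the 18-site tile in Zeb1, a zinc finger repressor that drives epithelial-mesenchymal transition. RD female 1 stood at 73.7% and HFD male 4 at 54.7%, RD female 2 at 27.5%, and the other 9 mice between 4.12 and 15.1%. At all 18 sites RD female 1 was the highest sample (66.2 to 79.7%) and HFD male 4 the next (35.5 to 61.3%). In Fbxl17, which encodes a subunit of a ubiquitin ligase, HFD male 4 stood at 60.0% and RD female 1 at 56.2%, above a range of 6.09 to 33.3% in the others. A 26-site tile in Zfhx3, a homeobox gene known from atrial fibrillation, ran from 18.2% in RD female 4 to 74.96% in RD female 1. In Map3k1, a kinase upstream of JNK, RD female 1 stood at 57.3%, HFD male 4 at 39.7% and RD female 4, the lowest, at 4.08%.

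**Figure D2:**
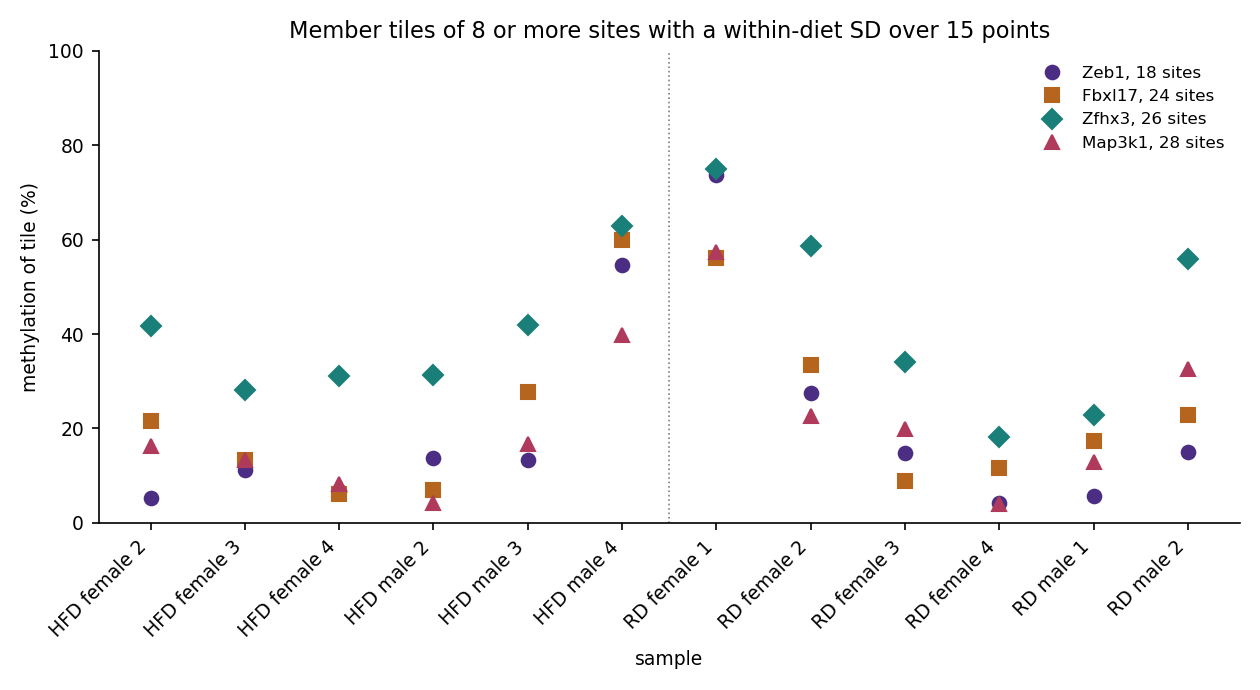
Tile methylation (y axis, %) of each of the 12 samples (x axis, HFD left and RD right of the dotted line) in the 4 tiles of 8 or more sites with a within-diet SD over 15 points. RD female 1 and HFD male 4 are the highest samples in Zeb1, Fbxl17, Zfhx3 and Map3k1, and RD female 4 is lowest in Zeb1 (4.12%), Zfhx3 (18.2%) and Map3k1 (4.08%).

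The same mice were thus high in all 4 of these genes, which lie on different chromosomes. RD female 1 was the highest sample in 89 of the 450 tiles with 8 or more sites, and the other samples in 19 to 54. Over all 4592 tiles RD male 2 was highest in 591, RD female 1 in 590 and RD female 2 in 523, and the other 9 samples in 261 to 397. HFD male 4 had values at the fewest sites of all samples (385299, against 391923 to 417081). The diet comparison of these tiles did not pass, with limma adjusted p-values of 0.957 in Zeb1 and 0.961 in Fbxl17.

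Averaged over all 4592 tiles, methylation was slightly lower in HFD than in RD offspring. The HFD samples had means of 57.2 to 57.8% (57.5% ± 0.210, SD, n = 6) and the RD samples 57.8 to 59.1% (58.3% ± 0.588, SD, n = 6), a difference of -0.860 points. The groups touched without overlapping, with 57.77% in the highest HFD and 57.78% in the lowest RD sample. This narrow separation was lost in 7 of 23 other settings, among them other tile sizes and a minimum of 5 sites, while the difference kept its sign in all 23. The spread was uneven in RD, where RD female 1 (59.07%), RD male 2 (58.89%) and RD female 2 (58.53%) stood above the other 3 mice (57.78 to 57.83%). Without these 3 libraries the difference was -0.347 points. They also had the highest means over all measured sites (39.5 to 39.7%, against 36.8 to 38.5% in the others), and the part of this in the difference was not tested further. The difference was -0.174 points in gene-body tiles over 80%, 0.186 in those under 20%, -0.851 in intermediate tiles within 1 kb of a gene end and -0.569 in intermediate tiles outside coding genes. Without the same 3 libraries these values were -0.0464, 0.754, -0.402 and -0.201 points, so the widest difference was then in the tiles under 20%.

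**Figure D3:**
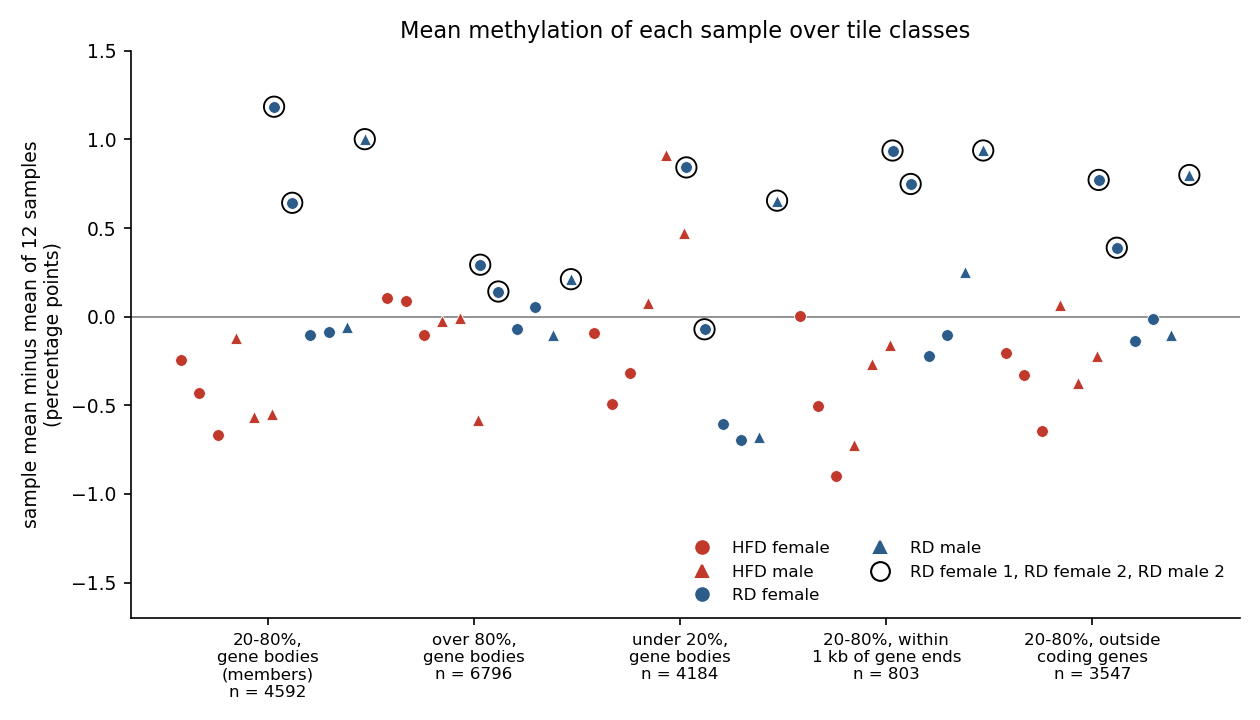
Mean methylation of each sample over 5 classes of tiles, as the difference from the mean of the 12 samples in that class (y axis, percentage points); circles are females, triangles males, and rings mark RD female 1, RD female 2 and RD male 2. In the 4592 intermediate gene-body tiles the highest HFD sample (57.77%) lies just below the lowest RD sample (57.78%), a separation lost in 7 of 23 other settings, and the ringed samples lie highest.

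For single tiles the diet was tested with limma across all 23791 tiles with a mean of 5 to 95%, and p-values were adjusted over all of them. Of the 4592 intermediate gene-body tiles, 4 differed at an adjusted p under 0.05, against a background of 0.0294% of all tiles tested, and all 4 were lower in HFD. They lay in Impact, Mindy4, Trappc9 and Prorp. At an unadjusted p under 0.05, 479 tiles (10.4%) differed, against a background of 7.81%. Of these, 341 (7.43% of the 4592) were lower in HFD, against a background of 4.64%, and 138 were higher. In intermediate tiles within 1 kb of gene ends 10.5% had a limma unadjusted p under 0.05, and 8.26% outside coding genes. It was found in 9.89% of tested gene-body tiles under 20% and 6.14% of those over 80%. The mean was lower in HFD in 2612 tiles (56.9%), against a background of 53.3%. Near gene ends and outside coding genes, 55.4% and 55.8% of intermediate tiles were lower. In gene-body tiles over 80% the share was 54.8%, and in those under 20% it was 44.2%. Complete separation of HFD from RD samples was found in 48 tiles (1.05%, background 0.626%), of which 44 were lower in HFD (0.958%, background 0.467%) and 4 higher.

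Most differences were small. The difference was under 5 points in 80.7% of the tiles, and the median was -0.57 points, against -0.177 over all tiles tested. It exceeded 10 points in 144 tiles, of which 119 were lower in HFD and 25 higher. By level, 61.4% of the tiles at 20 to 30% were lower in HFD, and 55.6% of those at 70 to 80%.

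**Figure D4:**
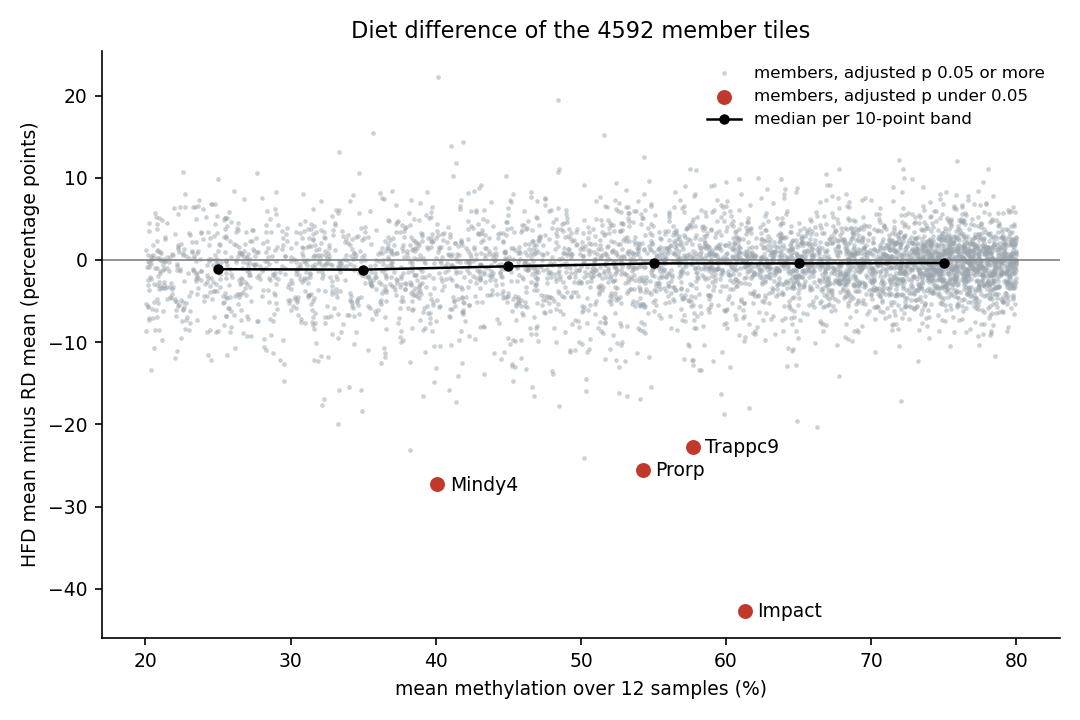
Difference between the HFD and RD means (y axis, percentage points) against the mean over 12 samples (x axis, %) for each of the 4592 tiles, with the median of each 10-point band joined in black. The 4 tiles with a limma adjusted p under 0.05, in red, lie between -42.7 and -22.7 points.

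Impact had the largest change of all 4592 tiles. The tile holds 16 sites on chromosome 18 from 12973219 to 12973470. Impact is expressed from the paternal copy in mice. The HFD samples had a lowest value of 33.9%, a median of 39.2% and a highest value of 45.5%. In RD the lowest, median and highest values were 74.7, 83.2 and 90.3%. The groups were far apart, and every HFD sample was lower than every RD sample at each of the 16 sites. The means were 39.9% ± 4.70 in HFD and 82.6% ± 5.99 in RD (SD, n = 6 each), a difference of -42.7 points (limma adjusted p = 0.000208). Leaving out any of the 12 libraries gave adjusted p-values from 0.000386 to 0.00205.

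Mindy4 encodes a deubiquitinase. Its tile has 7 sites on chromosome 6 from 55294855 to 55294925. The lowest, median and highest samples were 20.1, 27.2 and 31.5% in HFD and 47.0, 52.2 and 65.4% in RD, with no overlap. The means were 26.5% ± 4.52 and 53.7% ± 6.28 (SD, n = 6 each), a difference of -27.3 points (limma adjusted p = 0.0115). All 7 sites were lower in HFD, with differences from -37.6 to -18.0 points, and at 6 of them the samples did not overlap. The call was lost without HFD female 4 (limma adjusted p = 0.0599) or RD male 2 (0.0578).

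The third tile lies where Trappc9, a subunit of the vesicle-trafficking TRAPP complex, overlaps Peg13, an imprinted noncoding RNA expressed from the paternal copy. It has 6 sites on chromosome 15 from 72809880 to 72809945. The lowest, median and highest samples were 38.7, 47.1 and 50.5% in HFD and 61.8, 68.7 and 75.4% in RD, again with no overlap. The means were 46.4% ± 4.26 and 69.1% ± 4.81 (SD, n = 6 each), a difference of -22.7 points (limma adjusted p = 0.0179). Its sites were even, with differences from -23.2 to -22.2 points. The call was lost without HFD female 2 (limma adjusted p = 0.0810), HFD female 4 (0.0599), HFD male 3 (0.0632), RD female 2 (0.0544), RD male 1 (0.0691) or RD male 2 (0.0670). Another intermediate tile in Trappc9, outside Peg13, stood at 53.7% ± 6.86 in HFD and 57.2% ± 2.22 in RD (SD, n = 6 each; limma adjusted p = 0.886).

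Prorp encodes the nuclease of mitochondrial RNase P, which trims transfer RNA precursors. Its tile has 5 sites on chromosome 12 from 55321706 to 55321747. The lowest, median and highest samples were 32.8, 39.8 and 51.2% in HFD and 57.5, 67.6 and 75.2% in RD. The groups did not overlap, at the tile or at any of its 5 sites. The means were 41.5% ± 8.08 and 67.0% ± 5.93 (SD, n = 6 each), a difference of -25.6 points (limma adjusted p = 0.0328). With an offset of 0.01 in the log2 transform Prorp did not pass (limma adjusted p = 0.0591). It held without HFD female 3 (limma adjusted p = 0.00508), HFD male 2 (0.0404) or RD female 4 (0.0266), and leaving out HFD female 2, HFD female 4, HFD male 3, HFD male 4, RD female 1, RD female 2, RD female 3, RD male 1 or RD male 2 gave adjusted p-values of 0.0658 to 0.148. With RD female 1, RD female 2 and RD male 2 left out together, limma adjusted p-values were 0.0176 in Impact, 0.106 in Mindy4, 0.104 in Trappc9 and 0.354 in Prorp.

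**Figure D5:**
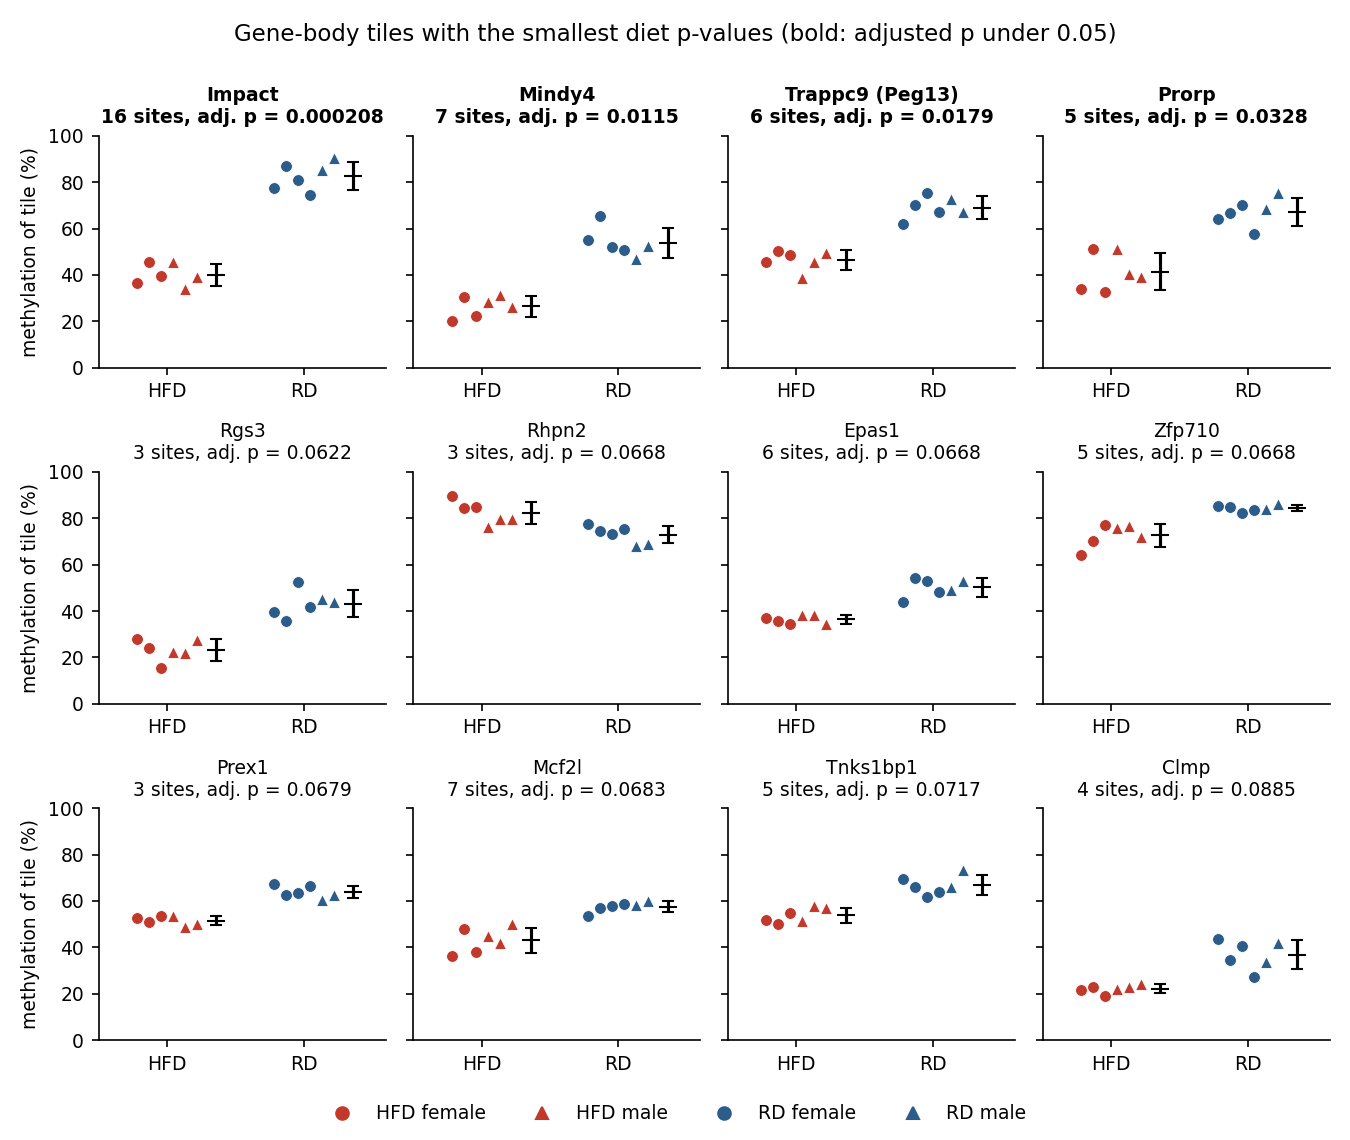
Tile methylation (y axis, %) of each HFD and RD sample in the 12 tiles with the smallest diet p-values; circles are females, triangles males, and the bars show mean ± SD (n = 6). In Impact, Mindy4, Trappc9 (Peg13) and Prorp, whose adjusted p is under 0.05, HFD and RD are fully separated, and Rhpn2 is the one tile of the 12 that is higher in HFD.

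The next 8 tiles by p-value did not pass, with limma adjusted p-values of 0.0622 to 0.0885. In the Rgs3 promoter tile shown above, the lowest, median and highest samples were 15.4, 23.3 and 28.1% in HFD and 35.6, 42.9 and 52.7% in RD, without overlap (limma adjusted p = 0.0622). Epas1 encodes the hypoxia-inducible factor HIF-2α, which is prominent in endothelium. It had 36.4% in HFD and 50.3% in RD, and its HFD samples were tightly grouped, between 34.3 and 38.5%. Rhpn2 was the one tile with a higher mean in HFD (82.4% against 73.0%), and its samples overlapped. In the Mcf2l promoter tile the lowest, median and highest samples were 36.4, 43.3 and 49.9% in HFD and 53.3, 58.2 and 60.1% in RD. Mcf2l passed without HFD female 3 (limma adjusted p = 0.0474).

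Prex1, an exchange factor for Rac, ran from 48.6 to 53.6% in HFD and from 60.3 to 67.3% in RD. Tnks1bp1, which binds the polymerase tankyrase, ran from 50.1 to 57.6% in HFD and from 61.6 to 73.5% in RD. Clmp, a cell adhesion protein, ran from 18.9 to 24.3% in HFD and from 27.0 to 43.5% in RD. In these 3 genes too the diets did not overlap, and Clmp passed without RD female 4 (limma adjusted p = 0.0275). The zinc finger gene Zfp710 had means of 72.7% in HFD and 84.4% in RD.

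Within the sexes Impact passed in both. In females 2 of the 4592 tiles passed, Impact and Mindy4, against a background of 0.0126%. Impact averaged 40.4% ± 4.64 in HFD daughters (n = 3) and 80.01% ± 5.29 in RD daughters (n = 4; limma adjusted p = 0.0124). Mindy4 averaged 24.3% ± 5.404 and 55.7% ± 6.68 (limma adjusted p = 0.0403). In males 1 tile passed, Impact, with 39.4% ± 5.73 in HFD sons (n = 3) and 87.9% ± 3.45 in RD sons (n = 2; limma adjusted p = 0.00829), against a background of 0.0042%. Mindy4 did not pass in males, with 28.6% in HFD and 49.8% in RD sons (limma adjusted p = 0.501). At an unadjusted p under 0.05 there were 352 tiles in females (7.67%, background 5.89%) and 347 in males (7.56%, background 6.67%). With 1 library left out, the number called ran from 0 to 2 in females and from 0 to 1 in males. Females lost both calls without HFD female 2, HFD female 4, RD female 1 or RD female 3, and 1 call without any other library but HFD female 3. Males lost theirs without HFD male 3, HFD male 4, RD male 1 or RD male 2. Without either RD male that group is 1 sample, which is assumed to vary like the other groups.

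Whether the diet difference differed between daughters and sons was tested as an interaction, and limma called 0 tiles (background 0%), with 218 at an unadjusted p under 0.05 (4.75%, background 5.09%). The smallest p-values were in Palld, an actin-binding protein, and Pde7b, a phosphodiesterase. In Palld the HFD minus RD difference was 13.9 points in females and -7.45 points in males (limma adjusted p = 0.880). The diet effect had the same sign in both sexes in 55.0% of the 4592 tiles and in 52.8% of all tiles tested. For sex itself limma also called 0 of the 4592 tiles (background 0.0168%), with 229 at an unadjusted p under 0.05 (4.99%, background 5.56%). The smallest p-values were in a 4-site tile of Zfhx3, at 79.96% ± 2.69 in females and 71.8% ± 2.14 in males (SD, n = 7 and 5), and in Trim17, a ubiquitin ligase, at 20.03% ± 12.2 and 44.0% ± 8.96 (limma adjusted p = 0.749 for both).

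Among imprinted genes, 34 tiles in 18 genes were intermediate, with a median level of 55.1%. They were 43.6% of the 78 gene-body tiles of the list, against 29.5% of all gene-body tiles. In the other lists this share ran from 16.7% (methylation machinery) to 51.1% (cardiomyocyte markers). The mean was lower in HFD in 27 of the 34, and the median difference was -3.35 points, against -0.177 over all tiles tested. Limma called 2, in Impact and at Trappc9 and Peg13, both lower in HFD, and 7 (20.6%) had an unadjusted p under 0.05, all lower, against 7.81% of all tiles tested. The list was written with earlier results of these samples known, so its direction is no independent evidence. Gnas, which encodes the stimulatory G protein alpha subunit in a locus with several imprinted promoters, had 7 tiles. Of these 6 had a lower mean in HFD, and the differences ran from -9.13 to 3.16 points. Its 25-site tile ran from 42.5 to 51.1% in HFD and from 52.6 to 62.9% in RD, without overlap (limma adjusted p = 0.263).

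In the Kcnq1 tile that overlaps Kcnq1ot1, the RNA that silences neighbouring genes in cis, the lowest, median and highest samples were 21.9, 32.2 and 38.5% in HFD and 32.7, 41.9 and 54.5% in RD (limma adjusted p = 0.438). Igf2r, the receptor that clears IGF2, had 3 tiles, all with lower means in HFD. In the 10-site tile overlapping the noncoding RNA Airn, HFD averaged 39.0% ± 7.44 and RD 52.0% ± 14.2 (SD, n = 6 each; limma adjusted p = 0.674). In the H13 tile, in a gene for a signal peptide peptidase, the means were 48.8% ± 5.97 and 60.6% ± 8.93 (limma adjusted p = 0.434). Other imprinted genes were mixed. In Grb10 2 of 3 tiles were lower, and the 8-site tile ran from 19.8 to 55.2% in HFD and from 20.1 to 39.0% in RD. Ano1, Inpp5f, Usp29 and Ppp1r9a had tiles with a higher mean in HFD, by 1.203 to 2.88 points, and none of these passed.

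Tiles in endothelial marker genes were lower in HFD in 24 of 29 cases, with a median of -2.86 points. None passed the limma test after adjustment, and 7 (24.1%, background 7.81%) had an unadjusted p under 0.05, 6 of them lower. The list was likewise written with earlier results known. Eng encodes endoglin, a TGF-β co-receptor of vessels. Its 4-site tile had values of 9.93, 29.5 and 40.0% (lowest, median and highest) in HFD and 41.3, 47.6 and 64.7% in RD, a wide spread in HFD without overlap between the diets (limma adjusted p = 0.318). Erg, an endothelial ETS factor, averaged 41.2% ± 10.7 in HFD and 55.0% ± 4.36 in RD (SD, n = 6 each; limma adjusted p = 0.361). Podxl, a sialomucin of the vessel lining, averaged 67.6% ± 4.07 and 76.1% ± 5.45 (limma adjusted p = 0.443). Gata2 went the other way, with 49.3% ± 4.15 in HFD against 41.3% ± 4.91 in RD (limma adjusted p = 0.524). The 6 tiles in Hspg2 had levels from 36.2 to 79.1%, and 4 were lower in HFD.

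Markers of the other cell types of the heart were counted in the same way, and the lists were not tested against each other. Lower means in HFD were found in 11 of 23 tiles in cardiomyocyte markers (median 0.42 points), 35 of 55 in fibroblast and matrix genes (-1.47), 7 of 14 in smooth muscle and pericyte markers (0.349) and 11 of 17 in immune markers (-1.54). None of these tiles passed, and 1, 2, 3 and 1 (4.35%, 3.64%, 21.4% and 5.88%) had a limma unadjusted p under 0.05, against 7.81% of all tiles tested. In Col4a1, a basement membrane collagen, all 3 tiles had a lower mean in HFD, with differences from -13.1 to -5.68 points. In Notch3, a receptor of mural cells, the 7-site tile averaged 19.9% ± 2.86 in HFD and 27.2% ± 6.27 in RD (SD, n = 6 each; limma adjusted p = 0.532). Tbx2 had 4 tiles, all with a higher mean in HFD, and its 12-site tile ran from 19.9 to 28.9% in HFD and from 16.7 to 22.8% in RD. Whether the share of any cell type moved with the diet was not tested.

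Among the contractile genes, 18 of 29 tiles in sarcomere genes were lower in HFD, with a median of -0.932 points and 2 (6.90%) at an unadjusted p under 0.05, near the background of 7.81%. In Mybpc3, which encodes cardiac myosin-binding protein C, a 3-site tile averaged 45.5% ± 4.66 in HFD and 52.0% ± 3.70 in RD (SD, n = 6 each; limma adjusted p = 0.429). Nebl, which encodes the Z-disc protein nebulette, had the opposite sign, with 32.01% ± 3.21 and 25.8% ± 6.03 (limma adjusted p = 0.599).

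Calcium handling genes had 47 tiles, 30 of them lower in HFD, with a median of -0.984 points. The 5 with an unadjusted p under 0.05 were in Casq2, Cacna1c, Cacna2d2, Camk2b and Cacna1h, all with a lower mean in HFD. Their share was 10.6%, against 7.81% of all tiles tested and 10.4% of the 4592 tiles, and limma called none after adjustment. Casq2 encodes the calcium-binding protein of the sarcoplasmic reticulum. Its tile ran from 33.5 to 49.2% in HFD and from 40.4 to 66.5% in RD (limma adjusted p = 0.439). Cacna1c encodes the pore of the L-type calcium channel, and its lowest tile averaged 18.8% ± 2.28 in HFD and 26.2% ± 4.92 in RD (SD, n = 6 each; limma adjusted p = 0.439). The 6 tiles in Cacna1c alone, this one included, pointed both ways, with 4 lower in HFD and differences from -7.38 to 7.29 points. A further tile, where Cacna1c overlaps Dcp1b, differed by -0.0195 points.

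None of the tiles in metabolic and growth genes passed. In lipid and energy metabolism 15 of 33 tiles were lower in HFD (median 0.398 points), and in insulin and IGF signalling 20 of 29 (median -1.81). A limma unadjusted p under 0.05 was found in 3 (9.09%) and 2 (6.90%) of these tiles, near the background of 7.81%, all with a lower mean in HFD. Srebf1, the regulator of lipid synthesis, had samples from 26.0 to 37.9% in HFD and from 37.3 to 49.4% in RD (limma adjusted p = 0.361). In Igf2 both tiles had a lower mean in HFD, with differences of -5.58 and -4.34 points. Igf1r had 33.0% in its lower tile, with HFD at 30.1% ± 5.56 and RD at 36.0% ± 3.84 (SD, n = 6 each; limma adjusted p = 0.584).

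Cardiac transcription factors were balanced, with 21 of 42 tiles lower in HFD and a median of 0.0102 points. The 3 at an unadjusted p under 0.05 (7.14%, background 7.81%) were in Isl1, Tbx2 and Prdm16, each with a higher mean in HFD. Isl1 marks progenitors of the second heart field. Its tile ran from 28.4 to 41.0% in HFD and from 17.0 to 33.0% in RD, with overlap (limma adjusted p = 0.489). In hypertrophy and receptor signalling 13 of 26 were lower, with a median of 0.0569 points, and 5 had a limma unadjusted p under 0.05, 2 of them lower. Their share was 19.2%, against 7.81% of all tiles tested and 10.4% of the 4592 tiles. It rests on few tiles, and 2 of the 5 were in Prkce, with opposite signs (-17.1 and 6.53 points). Ednrb, an endothelin receptor, ran from 44.0 to 51.1% in HFD and from 52.9 to 68.3% in RD, without overlap (limma adjusted p = 0.272). Of the 24 gene-body tiles in genes of the methylation machinery 4 were intermediate, of which 2 had a lower and 2 a higher mean in HFD and 0 had a limma unadjusted p under 0.05. Dnmt3a, a de novo methyltransferase, had 74.2% in HFD against 78.1% in RD (limma adjusted p = 0.685), and Tet3, which oxidizes methylated cytosine, had 33.1% against 29.4% (limma adjusted p = 0.909).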

How the data were processed

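Left ventricle DNA of 12 mice was measured by RRBS. The authors deposited 1 table of percent methylation per CpG position and sample (421177 positions), and it was used as deposited. Per the submitters' processing notes the tools included FastQC, Trim Galore, Bismark 0.19 and limma, and the build was mm10. A coverage minimum and how strands were handled are not given in the sources used here. Without read counts no test on counts and no interval per value could be computed, and rates from few reads count as much as rates from many.

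Sites (306534 autosomal with all 12 values) were averaged per tile of 500 bp. Tile rates with a mean of 5 to 95% were turned into log2((rate + 0.05)/(1 - rate + 0.05)) and fitted with limma 3.58.1 (R 4.3.3) with diet and sex as terms. Within-sex contrasts and their interaction used 1 mean for each of the 4 diet-by-sex groups. P-values were two-sided, Benjamini-Hochberg adjusted over 23791 tiles, with a threshold of 0.05. Differences in the text are in percentage points. With 200 simulated tiles shifted by diet among 23791, a shift of 1 on the log2 scale recovered 150 (75%), with 3 false calls, and a shift of 2 recovered 198 (99%), with 10 false calls.

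Genes, starts and sequences came from RefSeq tables of GRCm38.p6, without exons or introns. Of 39856 deposited positions in listed promoter windows, 39848 (99.98%) fell on a CpG. The start table has no entry for chromosome 18, which holds 138 of the tiles. Tissue identity was not checked, since marker genes are read from expression.

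The tiles and the 13 gene lists were chosen with earlier results of these data known. By rule, the text names the 12 tiles with the smallest diet p, for sex and interaction the 2 smallest and within a sex those past the threshold, the 5 with the most sites, the 5 genes with the most tiles, in each list the smallest p and the most sites, the 3 most and least variable and the 3 most and least even tiles of 8 or more sites, and the tiles at the limits. Some items that the rule names are not reported here. Other genes were named after their values were seen. Alternatives covered the offset, scale, level limits, variance model, sex term, replicate block, site minimum, tile size, missing values, strands, gene ends and each library. Figures were drawn with matplotlib 3.10.9.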

Additional observations from a re-analysis of the deposited data

Results flagged for a closer look

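In 7 of 121 groups of values, a sample stood far from the other samples of its diet, where chance at 1 in 20 gives about 6.05. The groups held the 6 samples of a diet or, for the mean over all tiles, also the 4 RD females. Some of the tiles, among them Zeb1 and Sgsm1, were named for their spread between samples, so this chance figure is only a rough guide. In Zeb1, HFD male 4 was at 54.69% against 5.35 to 13.7% in the other HFD mice, and RD female 1 was at 73.67% against 4.12 to 27.5% in the other RD mice. In Zfp993, HFD female 2 was at 53.77% against 43.0 to 44.9%. In the 12-site tile of Hspg2, HFD female 2 was at 70.39% against 75.9 to 78.5%. In Sgsm1, RD male 1 was at 74.27% against 76.4 to 77.5%. In D430041D05Rik, RD female 1 was at 63.3% against 65.6 to 66.9%. In Piwil4, RD female 3 was at 73.68% against 78.3 to 80.8%.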

How the results depend on the processing

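The count of 4 tiles called for diet moved with the processing, and every alternative kept Impact among them where the Impact tile was formed. Untransformed percentages called 11 (10 lower in HFD), adjustment over the tiles at 20 to 80% called 13 (12 lower), no sex term 7 and tiles of 5 or more sites 8, all lower. The replicate block called 1, Impact (limma adjusted p = 0.00870), with 0.123 in Mindy4, Trappc9 and Prorp. Residuals of the 4 same-numbered HFD and RD pairs of one sex correlated from -0.0467 to 0.0113, and those of the 14 other pairs from -0.041 to 0.0467. With so few pairs, and residuals taken within groups of 2 to 4 samples, this cannot settle whether same-numbered samples share more than a number. Leaving out RD female 1, RD female 2 and RD male 2, a choice made after seeing the data, called 1, and the mean over the 4592 tiles then differed by -0.3467 points. In females an offset of 0.01 called 1, and no limit on the level called 1. With 1 library left out, the calls ranged from 1 to 5 for diet, 0 to 2 in females and 0 to 1 in males, with 0 to 0 for the interaction and for sex, and the mean difference from -0.966 to -0.709. The diet count was 2 without HFD female 2, HFD male 3, RD female 2 or RD male 1 and 1 without HFD female 4 or RD male 2. The other alternatives, including leaving out the sites at 0% throughout (also chosen after seeing the data), stayed within 1.5 times of the main counts, and none reversed a direction. Unknown depth limits all of these values.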

Other observations

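The 2 tiles with the widest higher mean in HFD were outside the naming rule and were picked, with the genes after them, once their values were seen. In Dpy19l3, which encodes a C-mannosyltransferase, a 3-site tile averaged 51.25% ± 11.9 in HFD and 29.1% ± 6.29 in RD (SD, n = 6 each), so HFD was higher by 22.2 points (limma adjusted p = 0.219). In Epb41l1, which encodes a membrane skeleton protein, a 3-site tile averaged 58.2% ± 10.5 in HFD and 38.7% ± 5.03 in RD, 19.5 points apart (limma adjusted p = 0.176). The protein kinase C epsilon gene Prkce held 2 tiles of opposite sign. The first averaged 63.5% ± 11.9 in HFD and 80.6% ± 4.02 in RD, and the other 71.6% ± 5.395 and 65.0% ± 5.15 (limma adjusted p = 0.361 and 0.615). The 4 tiles in Akap6, which anchors signalling enzymes at the nuclear envelope of cardiomyocytes, all had a higher mean in HFD, by 0.350 to 15.5 points, and none passed.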
